A study of Mus musculus with 12 samples.

Results

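The S100 family was followed through the tibialis anterior of mice that lack the methyltransferase SMYD1 in their muscle fibers. The members were the 10 gene symbols S100a1, S100a4, S100a6, S100a8, S100a9, S100a10, S100a11, S100a13, S100a16 and S100b, chosen by their gene symbols, and all 10 were listed among the 23923 genes analysed in every library. RNA was sequenced from 12 mice aged 6 weeks, 1 library per mouse, with 6 controls and 6 Smyd1 conditional knockouts (CKOs), of the strain C57BL6/J;129S1/SvImJ. The study states that after its histology it used male tissue only. In the 12 libraries the Y-linked Ddx3y lay at 15.8 to 23.1 FPKM and Xist at no more than 0.11 FPKM. Controls were Myf6 cre/+; Smyd1 flox/+ and CKOs were Myf6 cre/+; Smyd1 flox/-. Every mouse therefore carried the Myf6 cre allele and, per the study's methods, a Rosa26 YFP/+ reporter, and the controls also had a floxed Smyd1 copy beside a wild-type copy. The cre is driven by Myf6, a gene of differentiated muscle fibers, whereas the RNA came from whole muscle with its connective tissue, vessels, nerve and blood cells. Cells outside the fibers are not the target of the cre, but in CKOs they carried the null Smyd1 allele, which the controls lacked.

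S100 proteins are small EF-hand proteins that mostly act as dimers. Binding of calcium opens a surface through which they hold target proteins such as annexins, non-muscle myosin or calcium channels, and several are also released from cells and signal through receptors such as RAGE and TLR4. In muscle the family is divided between cell types. S100A1 is the member of striated muscle fibers, where it binds the ryanodine receptor and the calcium pump of the sarcoplasmic reticulum. S100A4, S100A6, S100A10 and S100A11 are typical of fibroblasts and other stromal cells, S100B of Schwann cells and adipocytes, and S100A8 and S100A9 of neutrophils and monocytes. The comparison asked whether the fiber member and the stromal members behaved alike when SMYD1 was missing from the fibers.

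The values were FPKM, counts of sequenced fragments set relative to transcript length and to the total mapped from that library, and can be compared between genes because they are per length. Pearson correlations of log2 values between mice of a group lay between 0.944 and 0.972. The relative depth of the libraries, read from the steps between low FPKM values, ran from 0.984 to 1.77 of that of control 1. The library of control 1 stood apart: its summed fibroblast markers reached 1036 FPKM, against at most 370.4 FPKM in the other controls and 628.5 FPKM in the CKOs, and 3 S100 members were also highest there by a wide margin. Most member results and the fibroblast, macrophage and satellite sums that rest on it are also given without it. Smyd1 itself was listed at 33.0 to 47.1 FPKM in controls and at 27.8 to 39.9 FPKM in CKOs, a log2 difference of -0.13 (SE 0.12, adjusted p = 0.545), and of -0.32 (SE 0.083, adjusted p = 0.0797) after median-ratio scaling. The files give 1 value for the whole gene and the deleted part is not given in the sources used here, so that value does not check the genotype labels. In western blots of CKO tibialis anterior the study detected no SMYD1 protein. It does not state whether those were the mice sequenced.

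S100a1 was the most abundant member in every mouse (plot of each member by mouse). Its mean was 56.4 FPKM ± 14.9 in the 6 controls (SD) and 59.5 FPKM ± 5.74 in the 6 CKOs, and the range of S100a1 overlapped that of no other member within a group. It supplied between 46.0% and 62.3% of the summed FPKM of the 10 members in controls and between 42.1% and 59.98% in CKOs. The next members in order of mean were S100a10 and S100a6 in both groups. In controls they were followed by S100a13, S100a16, S100a4, S100a11, S100b, S100a8 and S100a9, and each neighbouring pair from S100a10 onward had overlapping ranges. In CKOs the order was the same except that S100a4 came right after S100a6, ahead of S100a13 and S100a16. There the ranges of S100a16 and S100a11 did not overlap, nor did those of S100a11 and S100b.

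**Figure D1:**
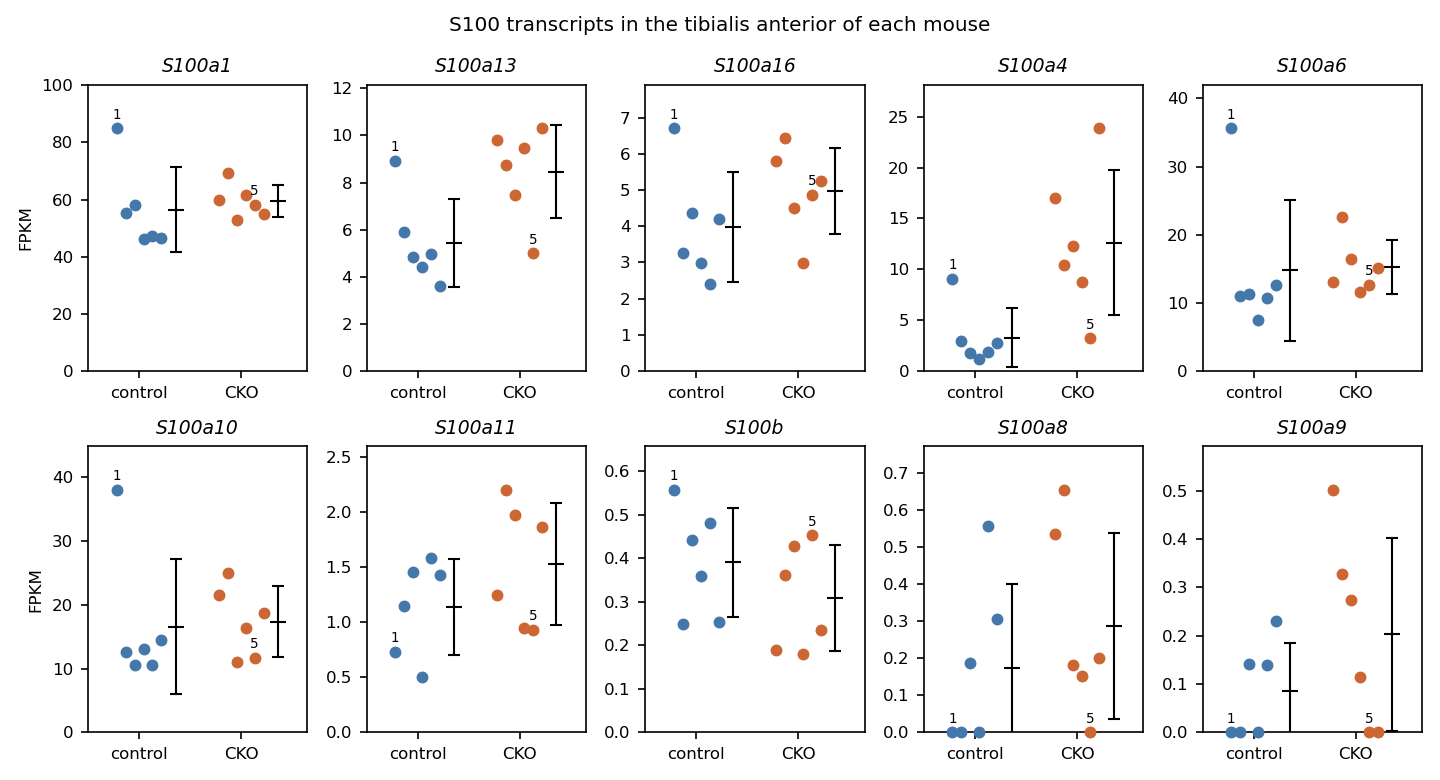
FPKM (y axis, linear, from 0, a separate scale per gene) of the 10 S100 transcripts in each mouse, controls in blue and Smyd1 CKOs in orange, with the group mean and SD (n = 6) in black, bars cut at 0. The numbers mark control 1 and CKO 5. S100a4 lies at 1.20 to 9.08 FPKM in controls and 3.20 to 23.9 FPKM in CKOs, and control 1 is the highest mouse of all for S100a1, S100a6 and S100a10.

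S100a1, the fiber member, differed little between the groups. Its lowest, median and highest FPKM were 46.3, 51.3 and 85.0 in controls and 53.0, 59.1 and 69.2 in CKOs. Controls 4, 5 and 6 lay below every CKO, controls 2 and 3 lay inside the CKO range and control 1 exceeded every CKO. The log2 fold change on the log2(FPKM + 0.1) scale was 0.11 (95% confidence interval -0.19 to 0.41, limma adjusted p = 0.688), and its sign turned to -0.08 after median-ratio scaling. Without control 1 it was 0.23 (adjusted p = 0.135).

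S100a13, a member known for its part in the release of FGF1 and interleukin 1 alpha from cells, lies next to S100a1 on chromosome 3 and is transcribed from the opposite strand. The start sites given by RefSeq (GRCm38.p6) face away from each other, at 90514330 for S100a1 on the minus strand and at 90514435 for S100a13 on the plus strand. The 104 bases between them are shown because a single short stretch lies before both genes, the fiber member and its neighbour. They run from chr3:90514331-90514434 and are printed on the plus strand, all in lower case because none of the 4 motifs searched occurs inside them on either strand, these being the TATAAA box, the E-box motif CANNTG, the motif TGANTCA of AP-1 type factors and the GC box GGGCGG.
S100a1 to S100a13: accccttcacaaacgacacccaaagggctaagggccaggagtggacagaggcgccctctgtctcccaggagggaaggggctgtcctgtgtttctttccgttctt

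The 2 genes that share this stretch did not show the same values. The lowest, median and highest FPKM of S100a13 were 3.61, 4.90 and 8.93 in controls and 4.997, 9.09 and 10.3 in CKOs. Of the 6 CKOs 3 lay above every control, 4 controls lay below every CKO, and the overlap came from control 1 and CKO 5. The log2 fold change was 0.65 (95% confidence interval 0.21 to 1.09, limma unadjusted p = 0.00681, adjusted p = 0.111 over all genes tested). S100a13 did pass the adjusted threshold without control 1 (0.80, adjusted p = 0.0148) or without CKO 5 (0.79, adjusted p = 0.0366). Taken within each mouse, S100a13 stood at 7.79% to 10.6% of the S100a1 level in controls and at 8.58% to 18.8% in CKOs, with 5 of the 6 CKOs above every control and CKO 5 as the exception. The log2 difference of that ratio was 0.54 (95% confidence interval 0.18 to 0.90, limma unadjusted p = 0.00578, adjusted p = 0.263 in the fit of the ratio to S100a1).

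S100a16, a widely expressed member, lies on the same chromosome beyond S100a14. Its lowest, median and highest FPKM were 2.40, 3.73 and 6.71 in controls and 2.99, 5.06 and 6.45 in CKOs. The highest control was control 1. The next, at 4.35 FPKM, lay below 5 of the 6 CKOs. Its log2 fold change was 0.35 (95% confidence interval -0.13 to 0.83, adjusted p = 0.385), and 0.52 without control 1 (adjusted p = 0.0981).

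S100a4 was the single member that passed the adjusted threshold, in a fit where 2.29% of all genes passed it. S100A4 is a calcium-dependent partner of non-muscle myosin heavy chain 9 and a common marker of fibroblasts and some macrophages. Controls 1 to 6 had 9.08, 2.97, 1.76, 1.20, 1.89 and 2.77 FPKM. CKOs 1 to 6 had 17.0, 10.5, 12.3, 8.75, 3.20 and 23.9 FPKM. Of the CKOs 4 lay above every control and 5 controls lay below every CKO, so that the overlap came from the high value of control 1 and the low value of CKO 5. S100a4 rose by 1.99 on the log2 scale (SE 0.47, 95% confidence interval 1.004 to 2.98, limma adjusted p = 0.0386), about 3.98-fold. The whole numbers of fragments recovered from the FPKM steps were 7 to 49 per control, 122 in all, and 17 to 162 per CKO, 551 in all. In whole muscle, more cells that make a transcript and more of it per cell cannot be told apart.

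The call of S100a4 stood close to the threshold, although its direction was the same in all 24 alternative settings. The adjusted p was 0.0602 after median-ratio scaling (log2 fold change 1.81) and lay between 0.0531 and 0.104 when any mouse other than control 1 or CKO 5 was left out. Without control 1 the fold change was 2.35 (adjusted p = 0.00426) and without CKO 5 it was 2.34 (adjusted p = 0.00767).

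S100a4 lies in the same cluster on chromosome 3, between S100a2 and S100a5 in the order of RefSeq genes, and S100a2 and S100a5 were listed at 0 in all 12 libraries. The 250 bases before its start are shown because S100a4 was the member that passed the test. They run from chr3:90603520-90603769 (GRCm38.p6, plus strand, RefSeq) and end at the base before the start, with the TATAAA match in capitals.
S100a4: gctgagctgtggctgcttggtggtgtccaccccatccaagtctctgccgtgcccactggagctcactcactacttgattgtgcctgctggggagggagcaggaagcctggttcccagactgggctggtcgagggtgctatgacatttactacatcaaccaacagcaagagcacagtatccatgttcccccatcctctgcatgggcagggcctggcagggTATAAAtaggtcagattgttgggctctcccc

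The match begins 31 bases before the start. Promoter windows of 300 bases, 250 before and 50 after the start, were given for 9 of the 10 members, with 2 windows for S100a16 and none for S100a10. TATAAA was found on either strand in the windows of S100a4, S100a8 and S100a9, and in 13.6% of all 32851 promoter windows. CANNTG was found in 8 of the 10 member windows and in 72.3% of all windows. TGANTCA was found in the windows of S100a11 and S100a16 (7.81% of all windows) and GGGCGG in those of S100a9, S100a11 and S100a16 (35.7% of all windows).

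S100a6 and S100a10, the most abundant stromal members, showed no difference that passed the test. S100A6, or calcyclin, binds the calcyclin-binding protein encoded by Cacybp. The lowest, median and highest FPKM of S100a6 were 7.47, 11.2 and 35.6 in controls and 11.6, 14.04 and 22.6 in CKOs. Apart from control 1 the controls reached 12.6 FPKM at most, and 4 of them lay below every CKO. The log2 fold change was 0.21 (95% confidence interval -0.40 to 0.82, adjusted p = 0.709), and 0.50 without control 1 (adjusted p = 0.0731).

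S100A10, which no longer binds calcium, forms a complex with annexin A2 at the membrane. The lowest, median and highest FPKM of S100a10 were 10.6, 12.8 and 38.0 in controls and 10.9, 17.5 and 25.0 in CKOs, with control 1 above all other mice. The log2 fold change was 0.17 (95% confidence interval -0.44 to 0.78, adjusted p = 0.757), turned to -0.01 after median-ratio scaling, and was 0.44 without control 1 (adjusted p = 0.145).

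S100a11, whose protein is a partner of annexin A1, was measured from few fragments, 3 to 12 per control and 5 to 14 per CKO. Its lowest, median and highest FPKM were 0.508, 1.29 and 1.59 in controls and 0.933, 1.56 and 2.21 in CKOs. Of the CKOs 3 lay above every control and the others lay inside the control range. The log2 fold change was 0.41 (95% confidence interval -0.19 to 1.003, adjusted p = 0.424). Control 1 was not high for S100a11, at 0.734 FPKM.

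S100b, the member of Schwann cells and adipocytes, was the only member with a lower mean log2 value in CKOs as deposited. Its lowest, median and highest FPKM were 0.248, 0.401 and 0.557 in controls and 0.180, 0.298 and 0.453 in CKOs, and the groups overlapped. The log2 fold change was -0.28 (95% confidence interval -0.80 to 0.24, adjusted p = 0.528), from 5 to 11 fragments per control and 5 to 10 per CKO. The summed Schwann cell markers lay at 13.1 to 18.3 FPKM in controls and 14.6 to 23.8 FPKM in CKOs, with none of the 9 genes past the adjusted threshold.

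S100a8 and S100a9, which encode the subunits of calprotectin, were at the limit of detection. S100a8 had 0, 0, 1, 0, 3 and 2 fragments in controls 1 to 6 and 4, 3, 1, 1, 0 and 1 in CKOs 1 to 6. S100a9 had 0, 0, 1, 0, 1 and 2 fragments in the controls and 5, 2, 2, 1, 0 and 0 in the CKOs. A single fragment was worth 0.133 to 0.218 FPKM for S100a8 and 0.10 to 0.164 FPKM for S100a9, so that the highest values, 0.655 FPKM and 0.502 FPKM, rested on 3 and 5 fragments. They passed the low-value filter with 8 and 7 mice. The log2 fold changes were 0.62 (95% confidence interval -0.56 to 1.81, adjusted p = 0.541) and 0.57 (95% confidence interval -0.47 to 1.61, adjusted p = 0.519), and a difference within these intervals was not detected. Of the 12 neutrophil markers in the files none passed the filter, Mpo, Elane, Camp and Ngp were listed at 0 in all libraries, and the summed level did not exceed 0.987 FPKM in any mouse.

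Over the family, 9 of the 10 members had a positive log2 fold change, S100b being the exception, with a median of 0.38 (plot of fold changes). Of all 12695 tested genes 77.9% were positive, with a median of 0.18. Counted at the adjusted threshold, 1 of 10 members passed. At an unadjusted p below 0.05, 2 members passed, S100a4 and S100a13, where 19.9% of all genes did. After median-ratio scaling the median of all genes was 0.01, that of the members 0.20, and 7 members were positive. The genes past the adjusted threshold were 257 higher and 34 lower as deposited, and 97 higher and 90 lower after that scaling. S100a1 and S100a10 changed sign there, while S100a4 (1.81) and S100a13 (0.46, adjusted p = 0.274) stayed positive.

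**Figure D2:**
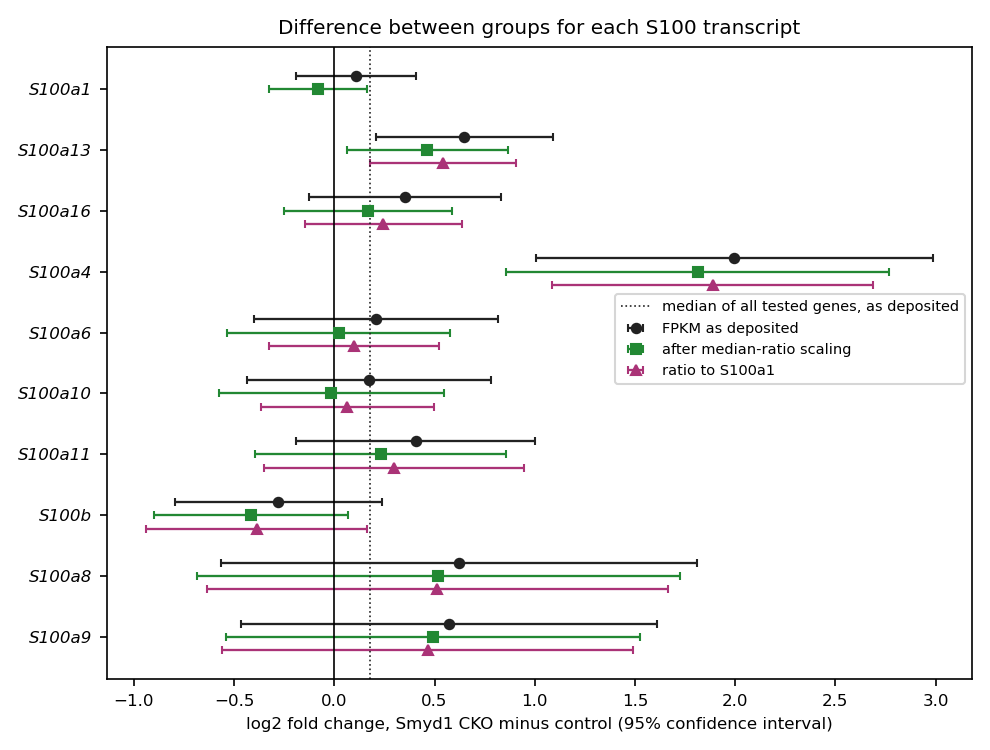
Log2 fold change of each S100 transcript, Smyd1 CKO minus control (x axis), with 95% confidence intervals from limma, for FPKM as deposited (black circles), after median-ratio scaling (green squares) and as a ratio to S100a1 in the same mouse (purple triangles). The dotted line is the median of all tested genes, 0.18. S100a4 lies at 1.81 to 1.99 on the 3 scales, and S100a1 is at 0.11 as deposited and -0.08 after scaling.

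Each gene was also taken as a ratio to S100a1 within a mouse, where a factor common to a whole library cancels except for what the pseudocount adds to low genes. In that fit 0.551% of 12694 genes passed the adjusted threshold, 51 higher and 19 lower. S100a4 was among them. It stood at 2.58% to 10.7% of the S100a1 level in controls, with a median of 4.69%, and at 5.499% to 43.5% in CKOs, with a median of 19.1%. The log2 difference was 1.89 (SE 0.38, adjusted p = 0.0257), and 5 of the 6 CKOs lay above every control. The other 8 members did not pass, with adjusted p from 0.263 for S100a13 to 0.98 for S100a10. The 95% confidence intervals of all 8 stayed below the value of S100a4, with the highest upper limit, 1.665, for S100a8. The log2 difference was 0.10 for S100a6 (95% confidence interval -0.32 to 0.52) and 0.06 for S100a10 (-0.37 to 0.50).

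S100a4 was also set against other stromal transcripts within each mouse. It stood at 15.6% to 27.0% of the S100a6 level in controls and at 25.3% to 159% in CKOs, with only CKO 5 inside the control range. Set against the summed fibroblast markers it stood at 0.358% to 1.06% in controls and at 0.785% to 5.09% in CKOs, again with 5 of 6 CKOs above every control. S100a6 on the same base stood at 2.24% to 4.15% in controls and 2.07% to 3.81% in CKOs. These ratios were formed after the values were seen and carry no test.

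Marker RNA of other cell types was summed in each mouse and set beside the members (heat map of members and markers). The 10 fibroblast markers summed to 281.2 to 1036 FPKM in controls and 408.2 to 628.5 FPKM in CKOs. Without control 1 the controls reached 370.4 FPKM, below every CKO. None of the 10 passed the adjusted threshold, with a median log2 fold change of 0.43 (0.24 after median-ratio scaling). Col3a1 (0.43, adjusted p = 0.478) and Dcn (0.34, adjusted p = 0.446), a fibrillar collagen and the proteoglycan decorin, were the most abundant. The 10 macrophage markers summed to 13.3 to 55.5 FPKM in controls and 18.3 to 33.7 FPKM in CKOs, with none past the threshold and Lyz2 and Mrc1 the most abundant. Controls other than control 1 reached 22.85 FPKM there, inside the CKO range. The ratios above carry no test and cover fibroblast markers but not macrophage markers. The part of either cell type in the S100a4 result was not tested.

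Of the other lists, tenocyte (8 genes tested, Thbs4 and Fmod the most abundant), endothelial (7, Pecam1 and Cdh5), mural (6, Rgs5 and Acta2), satellite (4, Vcam1 and Cdh15) and erythroid markers (4, Hba-a1 and Hbb-b1) had no gene past the adjusted threshold, and neither had Schwann cell markers (9, among them Pmp22). Satellite cell markers summed to 2.04 to 3.79 FPKM in controls and 3.26 to 5.24 FPKM in CKOs. Without control 1 those controls reached 2.96 FPKM, below every CKO. All 4 satellite genes were positive, with a median log2 fold change of 0.79 (0.63 after median-ratio scaling). Of the 8 tenocyte genes 0 were positive, with a median of -0.39 (-0.58 after scaling). At limma unadjusted p below 0.05, 3 satellite and 3 Schwann genes were higher and 2 tenocyte genes lower. Of all 12695 tested genes 19.9% passed at that level, 2300 of them higher and 224 lower. Endothelial, mural, erythroid and Schwann medians lay between 0.04 and 0.31. After median-ratio scaling they were -0.12, -0.14, -0.02 and 0.13, in that order. In the adipocyte list Retn alone passed, at no more than 1.23 FPKM, while its most abundant genes, Fabp4 (-0.20, adjusted p = 0.686) and Cfd (1.39, adjusted p = 0.0564), did not. Of the 5 adipocyte genes tested 4 were positive, Fabp4 being the exception, with a median of 0.80 (0.65 after scaling). At limma unadjusted p below 0.05, 3 of them were higher. The summed adipocyte level, 94.7 to 307.7 FPKM in controls, was nearly all Fabp4, at 93.7 to 304.7 FPKM there. The neutrophil genes with the highest means, Mmp9 and Il1r2, stayed below 0.5 FPKM.

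The fiber markers were those of fast muscle in all mice, with summed fast fiber markers of 16335 to 26565 FPKM, led by Tnnt3 and Mylpf. Of the 7 genes 2 had a positive log2 fold change and the median was -0.20. Tnnt3 was at -0.34 (adjusted p = 0.254) and Mylpf at -0.20 (adjusted p = 0.611), and none of the 5 with a negative value passed the adjusted threshold. The single gene past it, Myh1, the type IIx myosin heavy chain, rose by 1.05 on the log2 scale (adjusted p = 0.00733). The 6 slow fiber markers, led by Myl3 and Myl2, summed to 14.1 to 46.0 FPKM in controls and 20.2 to 271.1 FPKM in CKOs. None passed the adjusted threshold, but 5 were positive and the median log2 fold change was 2.02 (1.84 after median-ratio scaling). Those 5 had a limma unadjusted p below 0.05, where 19.9% of all genes did. The exception was Myl3 (-0.52, adjusted p = 0.33), with a median of 23.3 FPKM in controls, where the summed median was 34.1 FPKM.

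**Figure D3:**
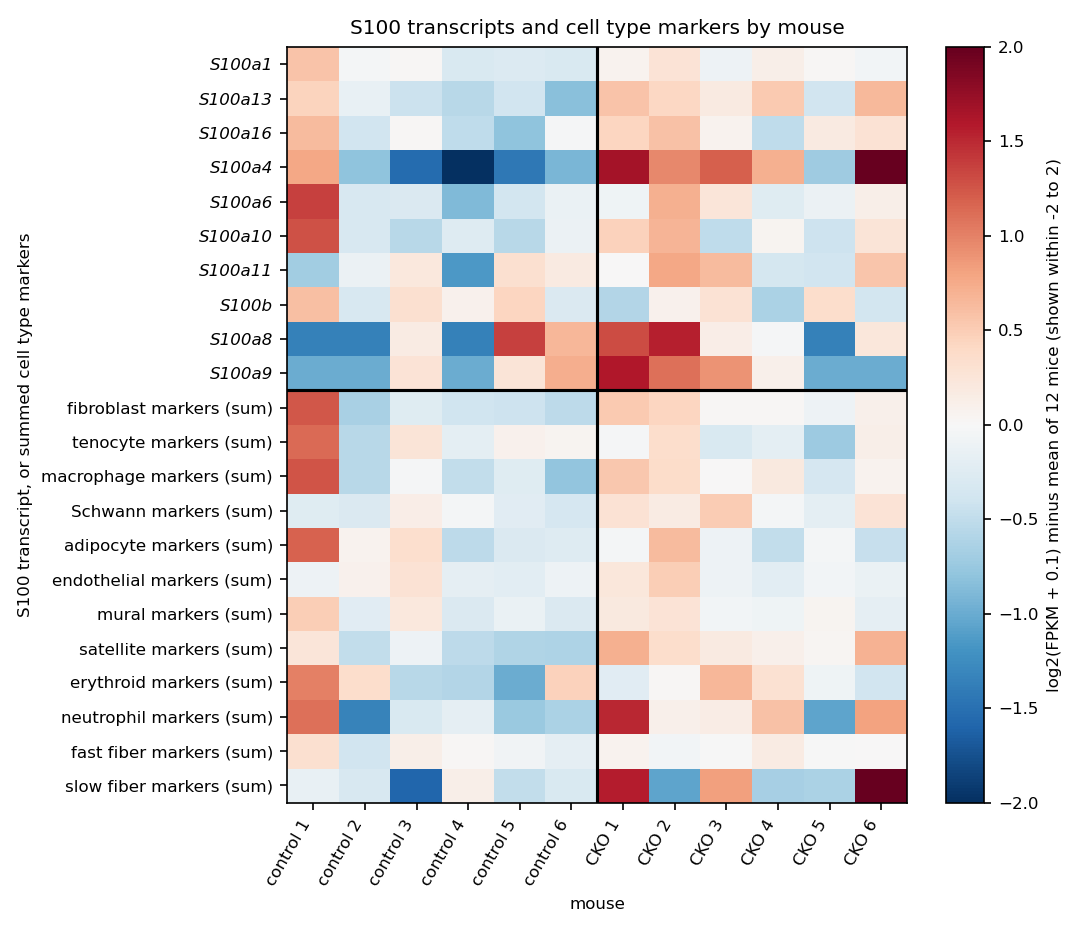
Log2(FPKM + 0.1) of the 10 S100 transcripts (upper rows) and of 12 summed cell type marker lists (lower rows) in each of the 12 mice (columns), as the difference from the mean of the 12 mice, colours shown within -2 to 2. Control 1 is high for S100a6, S100a10 and the summed fibroblast (1036 FPKM) and macrophage (55.5 FPKM) markers. S100a4 is low in controls 2 to 6 and in CKO 5.

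Known partners and cell types were paired with the members across the mice, as deviations of log2 values from the group means, for 12 relations (plot of deviations). Of these, 6 passed an adjusted permutation p of 0.05 by Pearson's r and none by Spearman's rho. S100a10 and Anxa2 rose and fell together in the 12 mice (r = 0.83, permutation p = 0.00233, adjusted p = 0.014, rho = 0.64, permutation p = 0.0278, adjusted p = 0.111). It did not hold in 10 mice, with r = 0.44 (permutation p = 0.204) and rho = 0.41 (permutation p = 0.248) without control 1 and CKO 2, the mice farthest from the median of S100a10.

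S100a4 followed S100a6 with r = 0.69 (permutation p = 0.0152, adjusted p = 0.0454, rho = 0.68, permutation p = 0.0183, adjusted p = 0.11), with r = 0.49 (permutation p = 0.141) and rho = 0.54 (permutation p = 0.117) without control 1 and CKO 5. S100a6 followed the summed fibroblast markers with r = 0.84 (permutation p = 0.00833, adjusted p = 0.0333, rho = 0.57, permutation p = 0.0556, adjusted p = 0.167), and r was 0.10 (permutation p = 0.75) without control 1 and CKO 2. S100a4 had r = 0.66 with the summed fibroblast markers (permutation p = 0.0227, adjusted p = 0.0454, rho = 0.52, permutation p = 0.0893, adjusted p = 0.214) and r = 0.66 with the summed macrophage markers (permutation p = 0.0217, adjusted p = 0.0454, rho = 0.43, permutation p = 0.17, adjusted p = 0.291). Without control 1 and CKO 5 these were 0.30 (permutation p = 0.403) and 0.20 (permutation p = 0.591). None of these stromal relations passed in the 10 remaining mice.

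S100a8 and S100a9 had r = 0.82 (permutation p = 0.00203, adjusted p = 0.014, rho = 0.73, permutation p = 0.00944, adjusted p = 0.11) and 0.81 without control 5 and CKO 5 (permutation p = 0.00792, adjusted p = 0.095). Both were measured from 0 to 5 fragments per mouse, so this describes which libraries held any fragment of either gene. S100a8 did not follow the summed neutrophil markers (r = 0.16, permutation p = 0.615, adjusted p = 0.735, rho = 0.03, permutation p = 0.938, adjusted p = 0.938). The remaining 5 relations had adjusted p of at least 0.124 by Pearson's r and 0.255 by Spearman's rho, among them S100a1 with fast fiber markers, S100b with Schwann and with adipocyte markers, S100a13 with Fgf1 and S100a11 with Anxa1.

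**Figure D4:**
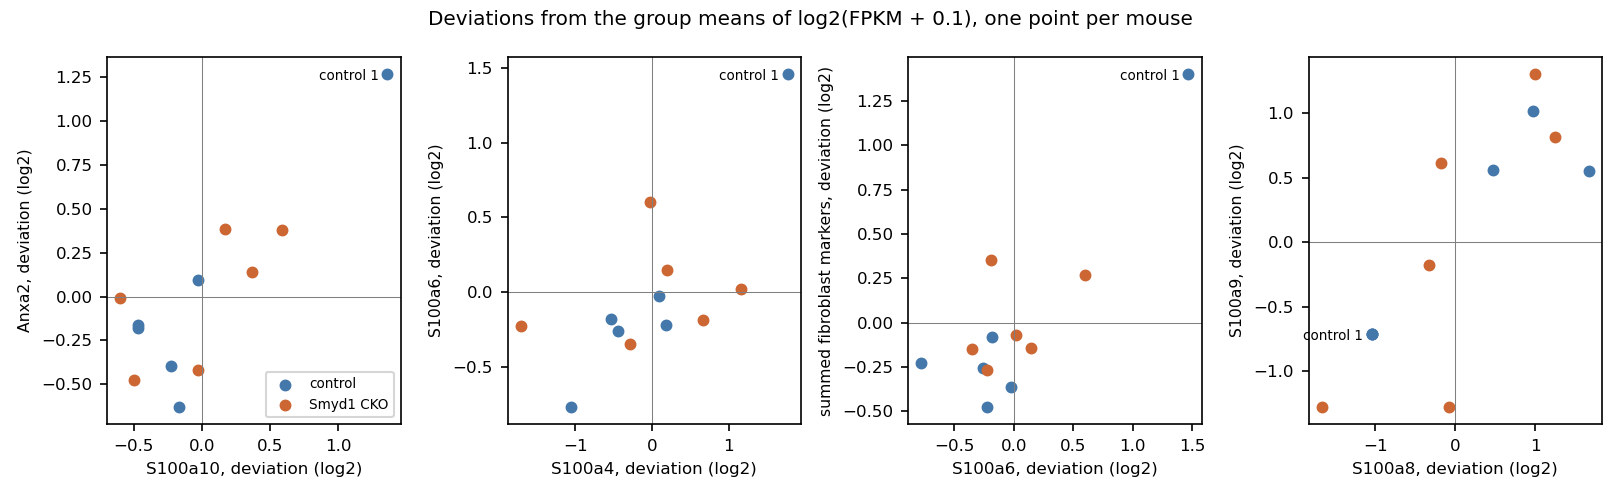
Deviation of log2(FPKM + 0.1) from the group mean for 4 pairs of measures, 1 point per mouse, controls in blue and Smyd1 CKOs in orange. Control 1 lies at the far upper right of the first 3 panels, where r is 0.83, 0.69 and 0.84 with all 12 mice, and at the lower left of the S100a8 and S100a9 panel.

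The genes that S100 proteins bind or signal through were described beside the members. Of 20 listed partners and receptors 17 were tested and 1 passed the adjusted threshold, where 2.29% of all genes did. At an unadjusted p below 0.05, 4 of the 17 passed, where 19.9% of all genes did, and the median log2 fold change was 0.31 against 0.18 for all genes. Anxa6, an annexin bound by several S100 proteins, lay at 16.4 to 28.2 FPKM in controls and at 26.4 to 35.5 FPKM in CKOs, so that control 1 alone overlapped the CKOs. It rose by 0.55 on the log2 scale (SE 0.13, adjusted p = 0.0408), with an adjusted p of 0.0603 after median-ratio scaling, where in its place Bsg, a receptor for S100A9, passed with -0.41 (adjusted p = 0.0279). Next by p were Ahnak, the large scaffold bound by the S100A10 and annexin A2 complex (0.42, adjusted p = 0.0649), and Tlr4, a receptor of S100A8 and S100A9 (0.73, adjusted p = 0.148). The direct partners of the stromal members, Anxa2 (0.42, adjusted p = 0.387), Anxa1 (0.38, adjusted p = 0.49), Myh9 (0.15, adjusted p = 0.567) and Cacybp (0.09, adjusted p = 0.773), did not pass, and the values of Myh9 and Cacybp were -0.04 and -0.10 after median-ratio scaling. Ager, which encodes RAGE, did not pass the low-value filter.

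Calcium-handling genes of the fiber, among them the known targets of S100A1, were described beside it. All 20 were tested and 3 passed the adjusted threshold, where 2.29% of all genes did, each of the 3 higher in CKOs. The median log2 fold change of the list was 0.14, against 0.18 for all genes, and turned to -0.05 after median-ratio scaling. Sln, which encodes the calcium pump inhibitor sarcolipin, lay at 0.328 to 5.69 FPKM in controls and 1.81 to 59.9 FPKM in CKOs and rose by 3.95 on the log2 scale (adjusted p = 0.0173). Cacnb1 (0.47, adjusted p = 0.0323) and Cacng1 (0.51, adjusted p = 0.0433), subunits of the muscle voltage-gated calcium channel, were the others. After median-ratio scaling Sln still passed (3.78, adjusted p = 0.0236), whereas Cacnb1 (0.28, adjusted p = 0.211) and Cacng1 (0.32, adjusted p = 0.144) did not. The S100A1 targets Ryr1 (0.20, adjusted p = 0.557) and Atp2a1 (-0.09, adjusted p = 0.733), the ryanodine receptor and the fast fiber calcium pump, did not pass. Ttn was left out by the low-value filter, since it was listed at 0 in part of the libraries. It reached 871.1 FPKM in controls and 696.3 FPKM in CKOs, so those zeros do not show a low transcript. Their cause was not tested.

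Other genes of the family were listed at or near 0. Of 7 further S100 symbols in the files none passed the filter, 5 were listed at 0 in all 12 libraries, and the highest value of any was 0.161 FPKM.

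Over the 12 mice, the tested genes whose deviations were most like those of S100a1 on scaled values were Myo5a (r = 0.92), Cpne8 (r = 0.91) and Fli1 (r = 0.90). Their log2 fold changes were 0.38, 0.41 and 0.34, and none passed the adjusted threshold. For S100a4 they were Atxn10 (r = 0.92), Dpysl3 (r = 0.91) and Maged2 (r = 0.90). Maged2 rose from a mean of 1.82 FPKM ± 1.43 (SD) in the 6 controls to 8.83 FPKM ± 3.65 in the 6 CKOs, a log2 fold change of 2.30 (SE 0.37, adjusted p = 0.0053). Atxn10 (0.43, adjusted p = 0.176) and Dpysl3 (0.61, adjusted p = 0.126) did not pass. These r were the highest of 12695 and are descriptions without a test.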

How the data were processed

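Ribosomal RNA was removed from 100 ng of total RNA with the ScriptSeq Complete Gold kit, and the authors aligned the reads with at most 2 mismatches, kept uniquely mapped reads and ran Cufflinks, whose FPKM per gene symbol is what they deposited. The submitters' processing notes name TopHat2 2.0.10, Cufflinks 2.1.1 and mm9. The authors' own test on counts was not used here. Close paralogs can lose fragments where multiply mapping reads are dropped.

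Of 23950 rows per file, 27 with a date in place of the symbol were left out. Groups were compared with limma 3.58.1 (R 4.3.3, intensity trend, no covariate) on log2(FPKM + 0.1) for the 12695 genes that reached 0.1 FPKM in 6 or more of the 12 mice, with Benjamini-Hochberg adjustment over all of them and a threshold of 0.05. A second fit used the same values minus those of S100a1 in the same mouse. A fold change on this scale understates the change of low genes. Relations across mice used two-sided permutation of the pairings with 100000 resamples (Python 3.11.15). Whole numbers of fragments were read from the steps of FPKM between libraries, with a tolerance of 0.02 fragments, for 68.4% of the genes and all 10 members. They are the smallest whole numbers that match, and their error covers counting alone. The fit was tested on simulated data with 200 genes changed.

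The 10 members and all lists were chosen with earlier results of these data known. Named genes were the members, Smyd1, partner and calcium-handling genes past the threshold with the 3 smallest p of each list, the 2 most abundant genes of each marker list, and the 3 genes most like S100a1 and S100a4. Some genes that meet this rule are left unreported here. Anxa1, Anxa2, Myh9, Cacybp, Ager, Bsg, Ryr1, Atp2a1, Ttn, Myh1 and Retn were named after their values were seen. Promoter sequences and gene order came from RefSeq (GRCm38.p6), which is not the build of the files, so no coordinates of the files are given.

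Other settings tried were quantile normalization, median-ratio scaling, a block by replicate number, sample weights, no trend, a larger pseudocount, other filters on low values, leaving out single mice, and removing effects of transcript length and GC content from each library. Median-ratio scaling without control 1 and limma-voom on the recovered fragments were added after the values were seen.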

Additional observations from a re-analysis of the deposited data

Results flagged for a closer look

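Among 44 groups of 6 mice tested, 5 had a mouse whose gap to its nearest neighbour, as a share of the range, exceeded the critical value of 0.625, where chance gives about 1 in 20 groups. In 4 of them the mouse was control 1. It stood at 85.0 FPKM for S100a1 against 58.1 in the next control (0.628 of the range on the log2 scale), at 35.6 FPKM for S100a6 against 12.6 (0.666), and at 38.0 FPKM for S100a10 against 14.4 (0.76). Its summed fibroblast markers were 1036 FPKM against 370.4 (0.789). S100a4 in control 1, at 9.08 FPKM against 2.97 in the next control, did not exceed the critical value. The fifth group was the summed slow fiber markers, where control 3 was low at 14.1 FPKM against 30.0 in the next control (0.639).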

How the results depend on the processing

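S100a4 kept its direction in all 24 alternatives (log2 fold change 1.67 to 2.48) and the adjusted threshold in 10 of them (adjusted p 0.000986 to 0.104), in 8 of the 12 that kept every mouse or were added after the values were seen and in 2 of the 12 that left out 1 mouse. S100a13 passed with sample weights (0.83), without control 1 or without CKO 5. The number of members past the threshold was 0 with no filter, median-ratio scaling, quantile normalization or no intensity trend, 2 with sample weights, and 0 to 2 when 1 mouse was left out. Over all genes 291 passed, against 193 with no filter, 187 with median-ratio scaling, 169 with quantile normalization, 189 with the length and GC correction, 1515 with sample weights, and 102 to 1136 when 1 mouse was left out, the highest without control 1.

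In the fit of the ratio to S100a1, leaving out 1 mouse gave 30 to 126 genes and 0 to 2 members, S100a4 passing in 5 of 12 such fits, with log2 differences of -0.00567 to 0.267 for S100a6 and -0.0449 to 0.212 for S100a10. S100a1 turned to -0.0798 and S100a10 to -0.0141 with median-ratio scaling, to -0.087 and -0.0143 with the length and GC correction, and S100a1 to -0.00145 with median-ratio scaling without control 1. The causes were not tested, apart from the shift of all genes that scaling removes.

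The study's methods state no pairing of mice by replicate number. Of 6 same-numbered pairs, 2 correlated above 0.1 (mean 0.0404) and 2 correlated best with their own number, too few pairs to decide whether mice were paired. With a replicate block in limma the SE of S100a4 went from 0.465 to 0.301 (adjusted p = 0.00926) and that of S100a10 from 0.286 to 0.184. The SE of S100a8 went up from 0.557 to 0.638 and that of S100a9 from 0.488 to 0.545. The replicate block gave 312 genes in the comparison of groups, 124 in the ratio to S100a1 and 183 together with the length and GC correction, where S100a1 was -0.087 and S100a10 -0.0143. S100a4 passed in each of these.

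Of the relations across mice 6 passed by Pearson's r, 3 with median-ratio scaling and 0 without the 2 mice farthest from the median. S100b with Schwann markers (0.13) became -0.0311 with scaling, -0.127 without centring and -0.0957 without the 2 mice. S100a11 with Anxa1 (-0.03) became 0.0886 and S100a13 with Fgf1 (-0.25) became 0.0145 without centring, and 0.207 without the 2 mice. S100a8 with neutrophil markers became -0.0273 without the 2 mice. S100a8, S100a9, S100a11 and S100b were measured from at most 14 fragments per mouse, and what depth adds to their error was not tested.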

Other observations

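Within the CKO group the mice with the most S100a4 also had the most RNA of the summed slow fiber markers. S100a4 and slow fiber markers were at 23.9 and 271.1 FPKM in CKO 6, at 17.0 and 126.2 FPKM in CKO 1 and at 12.3 and 75.0 FPKM in CKO 3. In CKO 2, CKO 4 and CKO 5 they were at 10.5 and 20.2 FPKM, 8.75 and 26.5 FPKM, and 3.20 and 27.2 FPKM. Among controls, control 1 had the most S100a4, 9.08 FPKM, with 38.3 FPKM of slow fiber markers, and control 4 had the least, 1.20 FPKM, with the most slow fiber markers of that group, 46.0 FPKM. This pairing was noticed in the values and was not tested.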
